A study of Mus musculus with 9 samples.

Results

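The transcripts described here were read by 373 array probes named uc.mouse followed by a number, of 97836 probes outside the controls on a mouse array for mRNAs and long noncoding RNAs. They were chosen by name alone, and the name is the sole evidence in the files that they read ultraconserved regions. Each number had 1 probe, and each probe had 1 spot on the array. The numbers ran from 1 to 483 with 110 left out. No name carried a strand, so differences between strands could not be measured. The files gave no position, gene or sequence for these probes, and none is printed.

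Ultraconserved regions are stretches of DNA that are identical in human, rat and mouse. Many lie between genes and act as enhancers of developmental genes, while others overlap exons of genes for RNA-binding and splicing proteins, where some belong to alternatively spliced exons. Some are transcribed, and such transcripts have been studied in liver both in hepatocellular carcinoma and in the storage of lipid by hepatocytes. The files do not pair the mouse numbers with the human ones, so no human role is carried over to a probe with the same number.

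Liver RNA came from male C57BL/6J mice aged 20 weeks, in 3 groups of 3 pools, with 4 mice in each pool. The metformin group was fed for 17 weeks on food in which fat supplied 45% of the energy, and was gavaged with metformin, a drug that lowers blood glucose, at 3 mg/kg/day during the last 5 weeks. The high fat diet group ate the same diet for the same time and was gavaged with saline over those 5 weeks. The control group ate chow for 17 weeks, and no gavage is recorded for it. Nothing says that pools were matched between groups, and a pool averages over its mice, so the spread between pools understates that between mice.

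The arrays lay on 3 slides. Metformin replicate 3 was alone on slide 3. Slide 2 carried metformin replicates 1 and 2 with high fat diet replicates 2 and 3. High fat diet replicate 1 was on slide 1 together with all 3 controls. Slide and group were thus partly confounded, and metformin and control shared no slide. The upper-quartile signal was 177 to 258 intensity units per array against a median local background of 20 to 24.5. None of 24 marker genes of liver cell types had a probe under its own symbol or RefSeq accession, so the labelled tissue could not be checked. Levels are log2 signal relative to the 75th percentile of the same array. A level of 0 is therefore the upper quartile, and levels of different probes cannot be set against each other as amounts of RNA. In tissue RNA, fewer cells of a type and less RNA per cell cannot be told apart.

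About 1 member in 3 was well above background on any given array. The extraction software called 112, 137 and 143 members well above background on the metformin arrays, 124, 132 and 137 on the high fat diet arrays, and 125, 126 and 152 on the control arrays. The groups overlapped. As a share of the 373, this averaged 35.0% ± 4.41 in the metformin pools, 35.1% ± 1.76 in the high fat diet pools and 36.0% ± 4.10 in the controls (SD, n = 3 each). The lowest share, 30.0% in metformin replicate 2, and the highest, 40.8% in control replicate 3, fell on the arrays where all other probes with 1 spot were also lowest (47.9%) and highest (60.2%). Detection of the members thus moved with that of the whole array, and the part of array brightness in the group values was not tested.

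**Figure D1:**
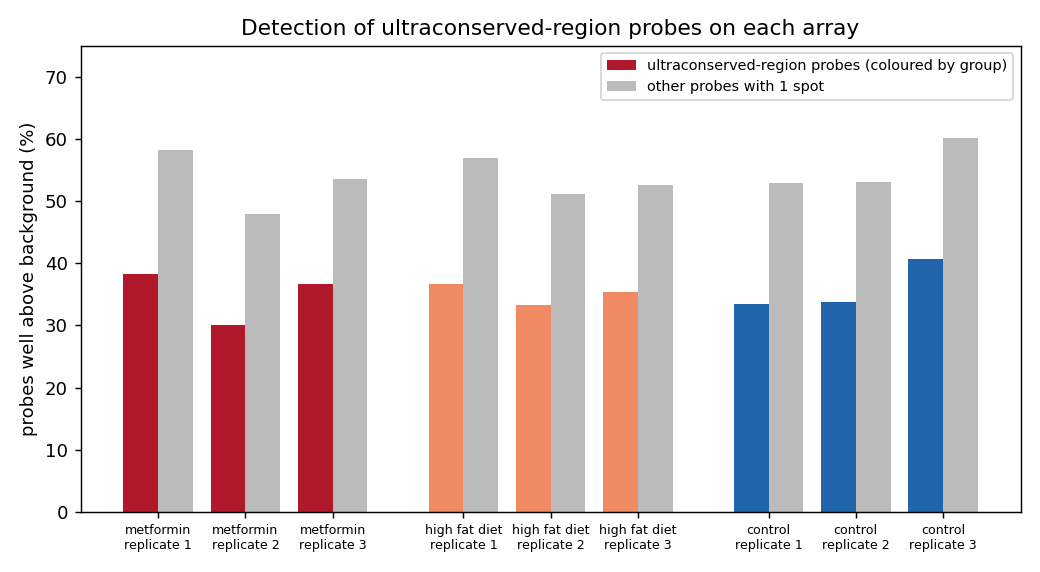
Percent of probes well above background on each of the 9 arrays, with ultraconserved-region probes in colour and the other 19393 probes with 1 spot in grey. The members sit between 30.0% and 40.8%, below the grey bar on every array.

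Members were detected less often than the rest of the array. The other 19393 probes with 1 spot were above background for 47.9% to 60.2% per array. The 440 probes named by a curated RefSeq noncoding transcript ran from 39.5% to 53.9%, and the 942 named by an Ensembl transcript ran from 37.6% to 49.6%. Each Ensembl-named probe had more than 1 spot, and counted as above background when at least 0.5 of its spots were. On each of the 9 arrays the members were below all 3 of these sets. These shares are given as a description, with no test.

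Most members were either always or never detected. Well above background on all 9 arrays were 96 members (25.7%), against 43.7% of other probes with 1 spot. On no array were 195 members (52.3%), against 34.2%. The remaining 82 were split, with 35 above background on 1 or 2 arrays and 47 on 3 to 8. Of the 22 members seen on a single array, 9 were seen on control replicate 3 alone, the array with the highest overall detection, and 4 on metformin replicate 1.

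**Figure D2:**
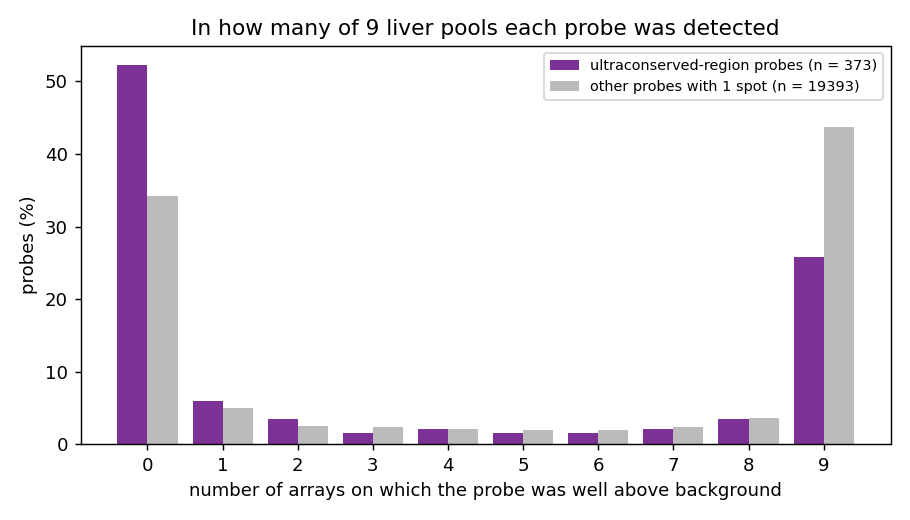
Share of probes (%) by the number of arrays, 0 to 9, on which the probe was well above background, for the 373 ultraconserved-region probes and the 19393 other probes with 1 spot. Of the members 52.3% lie at 0 arrays and 25.7% at 9, with few between.

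Detected members were spread over the whole range of numbers. Members above background on all 9 arrays made up 23.1% of those numbered 1 to 99, 26.9% from 100 to 199, 22.4% from 200 to 298, 28.8% from 300 to 399 and 27.9% from 400 to 483. Neighbouring numbers did not share detection to any large degree. Among 306 pairs of consecutive numbers, the second was above background on all 9 arrays in 27.0% of pairs when the first was, and in 24.1% when it was not.

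A group of 26 members lay above the upper quartile on all 9 arrays. Their mean levels ran from 0.19 to 3.19, and 23 of the 26 varied by less than 1 between their lowest and highest array. Per array, 6.97% to 8.31% of all members lay above the upper quartile, beside 16.3% to 17.1% of other probes with 1 spot. uc.mouse.186 had the highest signal, at 3.09, 3.33 and 3.14 in the metformin pools, 3.17, 3.03 and 3.14 in the high fat diet pools, and 3.39, 3.25 and 3.19 in the controls. Its high fat diet pools were all below its controls, by 0.17 on average (SE 0.13, limma adjusted p = 0.702). uc.mouse.301 was at 2.89, 3.10 and 2.88 in the metformin pools, 2.68, 2.84 and 2.86 in the high fat diet pools, and 3.21, 2.95 and 2.82 in the controls. Those groups overlapped apart from metformin over high fat diet.

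uc.mouse.264 was the steadiest of the 10 members with the highest mean level. It read 2.24, 2.16 and 2.35 in the metformin pools, 2.14, 2.07 and 2.15 in the high fat diet pools, and 2.07, 2.17 and 2.24 in the controls, a range of 0.28 over all 9. Its next number, uc.mouse.263, was also among the 10, with a mean level of 1.86 and a range of 0.46. The others of the 10 were uc.mouse.352, uc.mouse.169, uc.mouse.298, uc.mouse.443, uc.mouse.448 and uc.mouse.35. Across the 10, differences between groups stayed between -0.46 and 0.49, with adjusted p-values of 0.181 to 0.995 over the 3 comparisons.

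**Figure D3:**
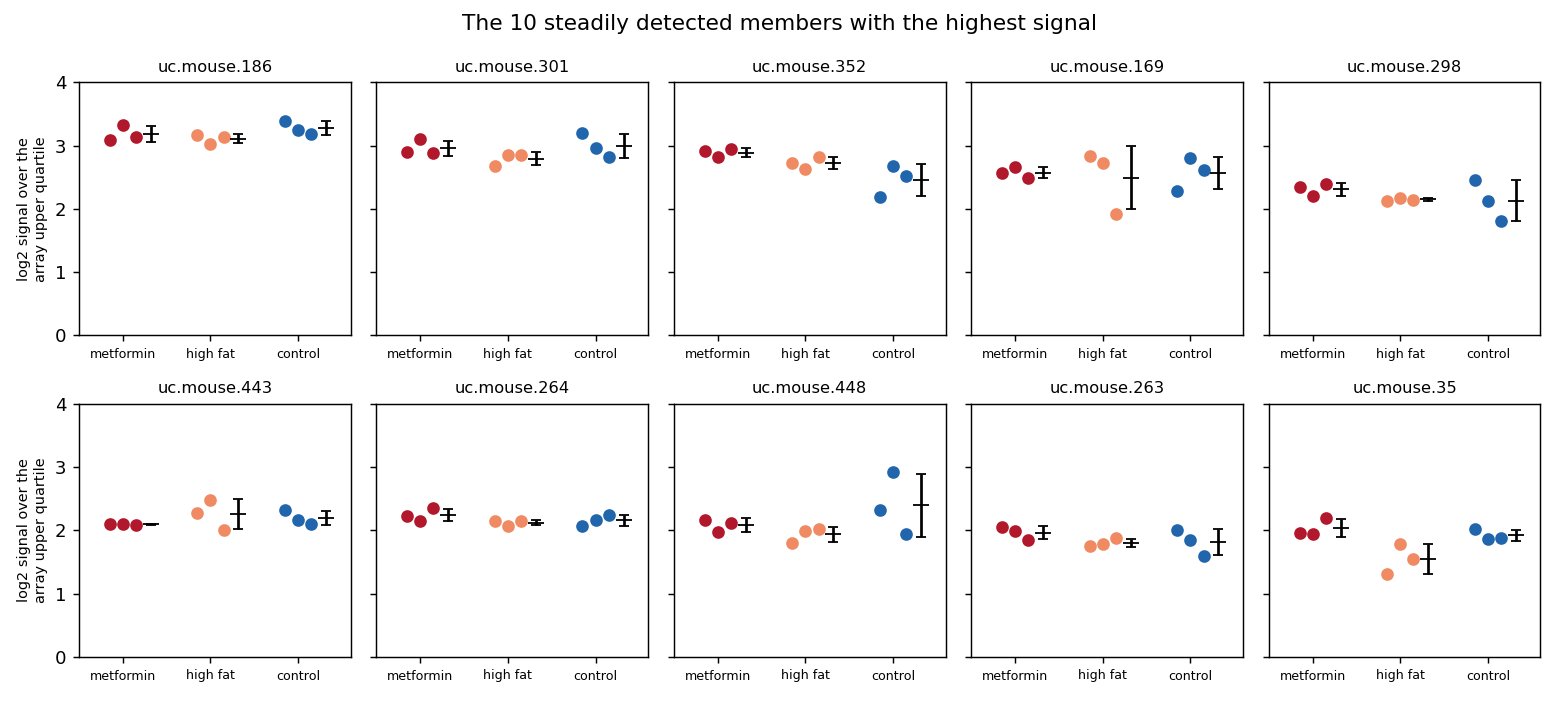
Level (log2 signal over the array's upper quartile) of the 10 members with the highest mean level among those detected on all arrays, by group, with 1 point per pool and the mean ± SD (n = 3) beside it. Filled points are well above background. All points are filled and lie between 1.31 and 3.39.

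The 96 steadily detected members were about as repeatable as other probes. The median standard deviation within groups was 0.24 for them and 0.22 for the 8469 other probes with 1 spot above background on all 9 arrays. Their median level was lower, at -0.96 against -0.52. A few members varied widely between pools of 1 group. uc.mouse.191 was at 0.51, -1.91 and -1.64 in the metformin pools, -1.48, -0.32 and -1.71 in the high fat diet pools, and -0.25, -0.11 and -0.58 in the controls. Metformin replicate 1 was the highest of all 9 and the other metformin pools were among the lowest, so no group difference exceeded the spread (adjusted p = 0.547 to 0.981). uc.mouse.412 was well above background on metformin replicate 2 alone, at -0.67, and lay between -5.81 and -4.84 on the other 8 arrays.

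Group differences were tested with limma over the whole array. A probe had to be well above background on at least 3 of 9 arrays, which 143 members met. Of those, 3 lacked a value on metformin replicate 2, where their spot was marked as an outlier, and were left out, so 140 members stood among 62036 tested probes. Calls are at a Benjamini-Hochberg adjusted p under 0.05 over all 62036. A member that met the minimum only through the group where it is high had to differ between groups, so counts over the 140 are descriptions.

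Setting metformin pools against controls takes diet, drug and gavage together. Of 140 members 1 passed limma's test, uc.mouse.406, beside 0.546% of all tested probes, or 0.237% counting the higher ones. It rose to -1.92, -2.11 and -1.61 in the metformin pools, against -3.13, -2.99 and -3.72 in the controls. Every metformin pool was above every control. No control was well above background, so the increase is a bound of at least 2.33-fold (fitted difference 1.40, SE 0.23, limma adjusted p = 0.0404). The bound compares the metformin mean with a limit averaged over the controls. In each control the limit is the dimmest signal called well above background, or the level of uc.mouse.406 itself where that was greater. The high fat diet pools lay between, at -2.24, -2.74 and -2.27, all 3 well above background. uc.mouse.406 met the detection minimum through the 6 high fat pools alone, the groups where it is high. Its call depended on that minimum, with an adjusted p of 0.0534 when detection on 1 array was enough and 0.0692 with no minimum.

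The call for uc.mouse.406 was lost in several fits with 1 array left out. Its adjusted p was 0.0907 when control replicate 2 was left out and 0.0699 when control replicate 3 was. Dropping metformin replicate 1, 2 or 3 gave 0.088, 0.0886 and 0.16. Differences in these fits were 1.18 to 1.54. With slide as a block the difference was 1.52, but the adjusted p was 1 in that fit, in which limma called 0 probes of the whole array between these groups and 2644 had an unadjusted p under 0.05. Within slide 1, high fat diet replicate 1 was 1.04 above the mean of the controls, and within slide 2 the metformin pools were 0.48 above the high fat diet pools. With normexp background correction the difference was 0.57 (adjusted p = 0.0344).

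The other members with the smallest p between metformin and control, 3 higher and 4 lower, did not pass. uc.mouse.435 was at -1.90, -2.23 and -1.93 in the metformin pools, against -2.73, -3.04 and -2.56 in the controls (difference 0.76, SE 0.17, adjusted p = 0.0669). Its high fat diet pools lay between these groups, and no group overlapped another. uc.mouse.435 was not well above background on all 9 arrays. In control replicates 1 and 2 it lay near the dimmest signal called well above background, -2.81 and -3.09. uc.mouse.325 was at -1.95 ± 0.29 in the metformin pools and -3.16 ± 0.55 in the controls (SD, n = 3 each), with 1 of 3 controls above background (adjusted p = 0.0795). uc.mouse.226, above background on all 9 arrays, was at -0.46, -0.40 and -0.01 in the metformin pools, against -1.17, -0.85 and -0.89 in the controls (difference 0.68, SE 0.17, adjusted p = 0.0952). With slide as a block uc.mouse.226 was at 0.32 and uc.mouse.325 at 1.53.

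Of the lower members, uc.mouse.432 was detected on all 9 arrays. It was at -2.12, -1.50 and -2.03 in the metformin pools, against -0.60, -0.33 and -0.82 in the controls (difference -1.30, SE 0.27, adjusted p = 0.0633). Its high fat diet pools were at -1.21, -1.18 and -2.11, also below every control. It passed in 4 alternatives, with adjusted p-values of 0.0292 to 0.0476, among them the test limited to probes above background on all 9 arrays (adjusted p = 0.0419). With slide as a block its difference was -0.80. uc.mouse.290 was well above background in no metformin pool, at -3.75, -3.50 and -3.95, and in all 3 controls, at -2.46, -2.50 and -2.94, at least 1.34-fold lower (adjusted p = 0.0508). It met the detection minimum only through control and high fat diet pools, where it is high, so its tests are descriptions. uc.mouse.370 was above background in the 3 controls and on no other array. It thus met the detection minimum only through the group where it is high, and had to differ. It was at least 1.20-fold lower in the metformin pools (adjusted p = 0.0718) and at least 1.23-fold lower in the high fat diet pools (adjusted p = 0.25).

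uc.mouse.218 showed how slide and group run together. It was at -3.32, -3.05 and -3.02 in the metformin pools, at -1.87, -3.08 and -3.58 in the high fat diet pools, and at -1.56, -1.51 and -1.85 in the controls. High fat diet replicate 1, the pool on the slide of the controls, was near them, and all pools on slides 2 and 3 were lower. Its difference between metformin and control was -1.49 (SE 0.36, adjusted p = 0.0817), and -0.09 with slide as a block. Without high fat diet replicate 1, which enters this comparison only through the pooled spread, its adjusted p was 0.0183. uc.mouse.249 had the same layout, at -4.22, -4.95 and -5.37 in the metformin pools, -3.09, -5.26 and -5.29 in the high fat diet pools, and -3.23, -2.90 and -3.33 in the controls. For both, slide and diet cannot be told apart. uc.mouse.249 also met the detection minimum only through arrays on slide 1, where it is high, so its tests are descriptions.

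**Figure D4:**
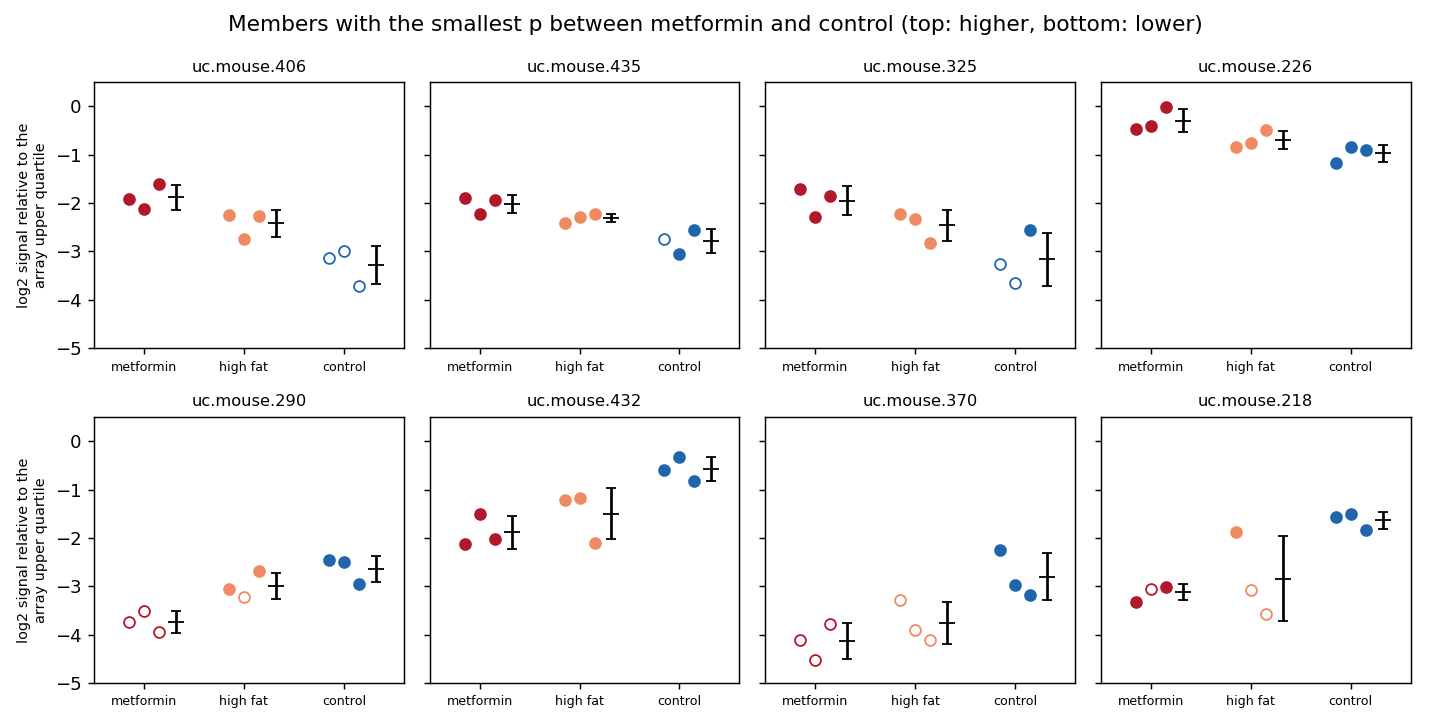
Level (log2 signal relative to the array's upper quartile) of the 8 members with the smallest p between metformin and control, 4 higher (top) and 4 lower (bottom), with 1 point per pool and the mean ± SD (n = 3) beside it. Filled points are well above background and open points are not. For uc.mouse.406 all 6 high fat pools are filled and all 3 controls open.

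As a set, more members were higher than lower in the metformin pools. Of the 140, 89 (63.6%) had a difference above 0 against controls, beside 49.3% of all tested probes, and their median difference was 0.11 beside -0.01. Among the 96 members detected on all arrays, 63 were above 0, with a median of 0.10. The median over all 49429 probes detected on all arrays was 0.01, and their share above 0 was not counted. The groups did not overlap for 34 members, which is 24.3% of the 140 beside 24.9% of all probes. Of these, 23 were higher (16.4% beside 12.5%) and 11 lower (7.86% beside 12.5%), and 31 had an unadjusted p under 0.05, 22.1% beside 19.1%. The share above 0 stayed between 57.9% and 67.9% under every alternative run. The highest share came with normexp background correction, where the median over all probes also rose, to 0.02 beside 0.11 for the members.

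The comparison of high fat diet with control asks what the diet changes, and it includes the saline gavage. Limma called 0 of 140 members, beside 0.0451% of all probes, and 18 members had an unadjusted p under 0.05, 12.9% beside 12.1%. uc.mouse.406 again had the smallest p of the members. It was at -2.24, -2.74 and -2.27 in the high fat diet pools, against -3.13, -2.99 and -3.72 in the controls, at least 1.61-fold higher (adjusted p = 0.201), and every high fat diet pool was above every control. uc.mouse.439 and uc.mouse.440, which have consecutive numbers and were detected on all arrays, came next among members with a higher level. uc.mouse.439 was at -1.92, -1.42 and -1.48 in the high fat diet pools, against -2.20, -2.24 and -2.26 in the controls (difference 0.62, SE 0.17, adjusted p = 0.205). uc.mouse.440 was at -1.60, -1.53 and -1.66 in the high fat diet pools, against -1.83, -2.29 and -2.15 in the controls (difference 0.49, SE 0.15, adjusted p = 0.235). Both had groups that did not overlap.

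Toward lower levels in the high fat diet pools, uc.mouse.218 differed by -1.21 (SE 0.36, adjusted p = 0.229) and uc.mouse.432 by -0.92 (SE 0.27, adjusted p = 0.234). uc.mouse.370 had only the bound given above, and uc.mouse.249 (adjusted p = 0.334), like uc.mouse.218, was well above background in 1 of 3 high fat diet pools. When high fat diet replicate 1 was left out, uc.mouse.218 passed (adjusted p = 0.022), and so did uc.mouse.249 (adjusted p = 0.0311). The other high fat diet pools were not well above background for either. For uc.mouse.218 the decrease is then a bound of at least 2.59-fold. For uc.mouse.249 the detection limit of those pools lies above the mean of the controls, so no fold is given. It also met the detection minimum only through arrays on slide 1, where it is high, so its pass is a description. Within slide 1, high fat diet replicate 1 was 0.24 below the controls on average for uc.mouse.218 and 0.06 above them for uc.mouse.249. For uc.mouse.432 it was 0.63 below. In all, 20 members had groups that did not overlap, 14.3% beside 15.4% of all probes. Of these, 13 were higher (9.29% beside 7.27%) and 7 lower (5% beside 8.13%). Of the 140, 74 had a difference above 0, 52.9% beside 48.2%, and the median difference was 0.02 beside -0.01. Neither held its direction without control replicate 2, where 45.7% were above 0 and the median was -0.03. Over all alternatives the share ran from 45.7% to 62.1%.

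The effect of metformin in mice kept on the diet was asked by setting metformin pools against high fat diet pools. Limma called 0 of 140 members, beside 0.00645% of all probes, and 14 members had an unadjusted p under 0.05, 10% beside 6.64%. Differences over the 140 ran from -0.74 to 1.66. uc.mouse.290 had the smallest p, at -3.75, -3.50 and -3.95 in the metformin pools, against -3.07, -3.22 and -2.69 in the high fat diet pools, of which 2 were above background (at least 1.05-fold lower, adjusted p = 0.566). As it met the detection minimum only through high fat diet and control pools, where it is high, its test is a description. uc.mouse.478 was at -2.40, -2.52 and -2.75 in the metformin pools, against -1.73, -1.88 and -2.10 in the high fat diet pools (difference -0.65, SE 0.19, adjusted p = 0.599). Its controls, at -2.09, -1.77 and -2.44, overlapped both.

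uc.mouse.275 was at -2.05, -2.51 and -2.74 in the metformin pools, against -1.53, -1.89 and -1.65 in the high fat diet pools (difference -0.74, SE 0.25, adjusted p = 0.647). Against controls, which were at -2.01, -2.62 and -2.83, its high fat diet pools were higher by 0.80 (SE 0.25, adjusted p = 0.246). The high fat diet pools were thus above all 6 other arrays, and both comparisons share them. uc.mouse.409 differed by -0.53 (SE 0.18, adjusted p = 0.647) between metformin and high fat diet, and by 0.43 (SE 0.18, adjusted p = 0.392) between high fat diet and control.

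Higher with metformin, and not past the threshold, uc.mouse.35 was at 1.96, 1.94 and 2.20 in the metformin pools, against 1.31, 1.79 and 1.55 in the high fat diet pools (difference 0.49, SE 0.16, adjusted p = 0.647). Its controls, at 2.02, 1.87 and 1.88, overlapped the metformin pools and lay above the high fat diet pools. uc.mouse.202 (0.42, SE 0.15, adjusted p = 0.658), uc.mouse.225 (0.68, SE 0.24, adjusted p = 0.665) and uc.mouse.121 (0.50, SE 0.18, adjusted p = 0.672) likewise had groups that did not overlap. Within slide 2 the differences of the 8 members named for this comparison ran from -0.76 to 0.80, in the same directions. They were picked for their p on arrays that include these. A member whose groups do not overlap must keep its direction there, so this is a description and not a check on slide. Groups did not overlap for 26 members, 18.6% beside 16.2% of all probes. Of these, 18 were higher (12.9% beside 8.04%) and 8 lower (5.71% beside 8.15%). The median difference was 0.07 beside 0.01. Of the 140, 84 were above 0, 60% beside 51.3%, and this share was 55.7% to 74.3% over the alternatives. The highest share came with normexp background correction, where the median over all probes also rose, to 0.03 beside 0.09 for the members.

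**Figure D5:**
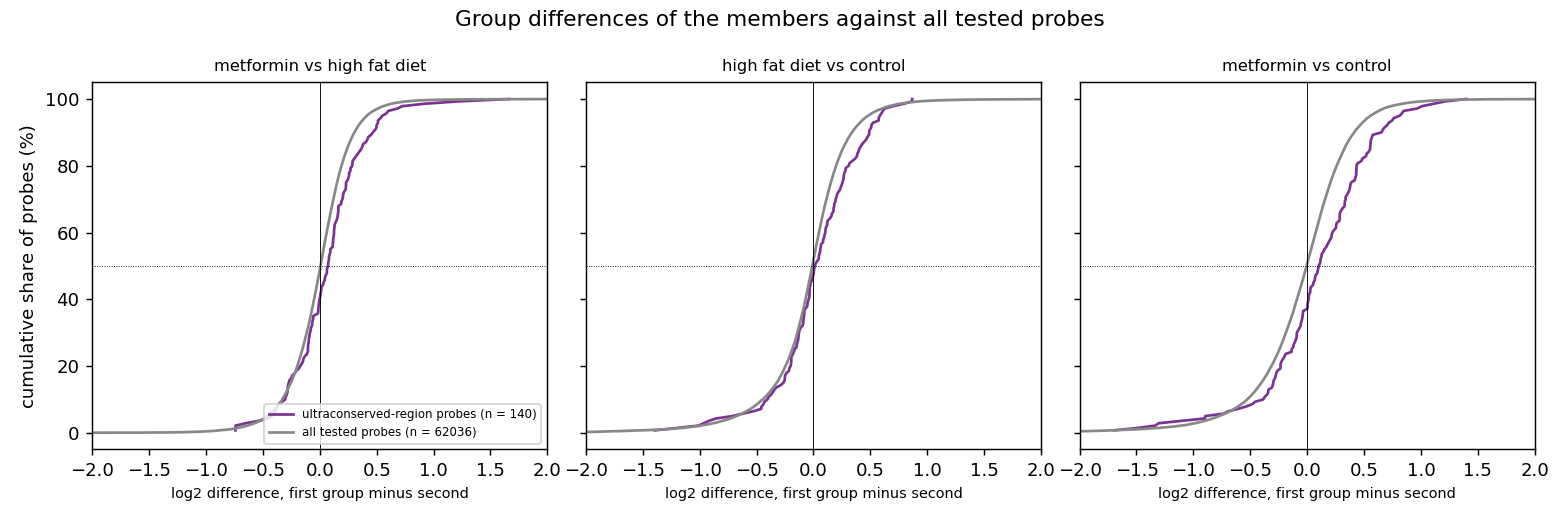
Cumulative share (%) of probes by log2 difference for the 3 comparisons, with the 140 tested members in purple and all 62036 tested probes in grey. The purple curve crosses the middle of the scale at 0.07, 0.02 and 0.11 from left to right, against 0.01, -0.01 and -0.01 for all probes.

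Over the 3 groups together, limma's F test called 0 of 140 members, beside 0.124% of all probes, and 28 members had an unadjusted p under 0.05, 20% beside 15.3%. Fitted differences of more than 1 on the log2 scale were counted for the members only, with no share over all probes, and some were against pools at background. Between metformin and control 4 members were higher and 5 lower by that much, between high fat diet and control 0 were higher and 3 lower, and between metformin and high fat diet 2 were higher and 0 lower. The last 2 were uc.mouse.240 and uc.mouse.307, named after their values were seen, with adjusted p-values of 0.674 and 0.74. uc.mouse.240 was well above background in no high fat diet pool and was at least 1.48-fold higher in the metformin pools. It thus met the detection minimum only outside the group where it is low, so its test is a description.

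Human ultraconserved regions with a published role shared their number with a mouse probe in 13 of 18 cases, and whether the regions are the same is not given. A mouse probe with the number of a human region studied in hepatocellular carcinoma was well above background on all 9 arrays, at -0.11, -0.95 and -0.42 in the metformin pools, -0.42, -0.57 and -0.05 in the high fat diet pools, and -0.73, -0.53 and -0.57 in the controls. Its groups overlapped in each comparison (adjusted p = 0.723 to 0.945). The probe with the number of the human region studied in hepatocyte lipid storage was above background on no array, with levels of -5.79 to -4.93. Another 7 of the 13, among them uc.mouse.160, were likewise well above background on no array. uc.mouse.73 was above background on 8 arrays and uc.mouse.63 on 7, with adjusted p-values of 0.214 to 0.94.

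The remaining members of the 13 were each seen in 2 pools of 1 group, under the minimum of 3 arrays. uc.mouse.8 was at -5.68, -4.96 and -5.38 in the metformin pools, at -4.55, -5.24 and -4.98 in the high fat diet pools, and at -3.23, -2.90 and -3.00 in the controls. All controls were above all other pools, but 2 of 3 were well above background, and the bound between metformin and control was only at least 1.01-fold lower. When probes above background on 1 array were let in it passed limma's test between metformin and control (adjusted p = 0.022), as it did with no minimum (adjusted p = 0.0285). The other was at -4.97, -4.13 and -4.15 in the metformin pools, at -3.75, -2.83 and -2.84 in the high fat diet pools, and at -4.57, -4.16 and -3.91 in the controls. High fat diet replicates 2 and 3, both on slide 2, were its detected pools.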

How the data were processed

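Per the file headers, the authors read the scans with version 11.5.1.1 of Agilent's Feature Extraction; the submitters' processing notes give 10.7. The deposited processed signal is a linear intensity, background-subtracted within each array. The deposited series table holds log2 values equal to the scanner values less 1 constant per array (within 0.01 for at least 99.97% of probes; column medians -2.39 to -2.16), so it brings no other normalization. The headers name build mm9, and no coordinates are used. Control spots and outlier-marked spots (0 to 3 members per array) were dropped, log2 processed signals were averaged per probe, and levels were set relative to the 75th percentile of the array. Groups were compared in limma 3.58.1 (R 4.3.3) over all 9 arrays, with 6 residual and 3.75 prior degrees of freedom; the script was tested on simulated data. Arrays give no counts, and their number limits the precision. The column for the mean spot signal is not in the files used here, so normexp used the median signal (offset 50). Members named are those passing the test, the 4 higher and 4 lower with the smallest p per comparison, the 10 with the highest mean level, and numbers with a published role. Members and lists were chosen with earlier results of these data known. Replicate numbers were not taken to pair pools, since no match is recorded. Of 9 same-number pairs, 1 had deviations correlated above 0.1, which cannot show whether pools were matched.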

Additional observations from a re-analysis of the deposited data

How the results depend on the processing

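The share of members above background averaged 35.4%, and was 57.2% with the software's weaker criterion of a positive and significant signal, and 34.7% to 36.1% when 1 array was left out. Requiring every spot or any spot changed nothing, since each member has 1 spot. Strand pairs could not be analysed because no probe name gives a strand. Between metformin and control 1 member passed. With quantile normalization 2 passed, with limma's trend and robust spread 2, with a fit of the compared groups alone 3, with slide blocked 0 (6 at an unadjusted p under 0.05 in limma), and with the replicate block 0 (29 at an unadjusted p under 0.05 in limma). With probes above background on at least 1 array, and with no filter, the 1 member that passed was uc.mouse.8 (adjusted p 0.022 and 0.0285) in place of uc.mouse.406 (adjusted p 0.0534 and 0.0692). When detection on all 9 arrays was required, uc.mouse.432 alone passed. Leaving out 1 array gave 0 to 4. The 4, without control replicate 1, were uc.mouse.406, uc.mouse.143, uc.mouse.290 and uc.mouse.376, the 3 without high fat diet replicate 1 were uc.mouse.406, uc.mouse.218 and uc.mouse.249, and the 3 without high fat diet replicate 3 were uc.mouse.406, uc.mouse.290 and uc.mouse.432. Of these, uc.mouse.406, uc.mouse.290 and uc.mouse.249 met the detection minimum only where they are high, so their passes are descriptions. Between high fat diet and control, leaving out 1 array gave 0 to 2, and between metformin and high fat diet every setting gave 0. In the F test, 0 members passed in the main setting, 0 to 2 with 1 array left out, 1 with probes above background on at least 1 array and 1 with no filter, in both cases uc.mouse.8. uc.mouse.249 turned to 0.0572 with slide as a block between high fat diet and control. Each other named member kept its direction in its comparison under all alternatives run, but not always its size. With normexp background correction uc.mouse.290 went from -0.74 to -0.04 between metformin and high fat diet (limma adjusted p = 0.954). Between metformin and control its smallest decrease over the alternatives was -0.22, beside -1.10 in the main setting. For uc.mouse.370 it was -0.20, beside -1.34. The replicate block took uc.mouse.406 to an adjusted p of 0.0612, within a range of 0.0246 to 1 over its 19 alternatives, 10 of which it passed. It changed no other call of a member. The cause of these moves was not tested. With slide as a block few pools remain per slide, and slide and group are partly confounded. Members near background limit what could be seen, since 195 of 373 were well above it on no array.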

Other observations

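uc.mouse.307 and uc.mouse.311 ran alike over the arrays, a pair picked after the values were seen, as uc.mouse.311 was the tested member with the highest correlation with uc.mouse.307. uc.mouse.307 was at -2.09, -0.95 and -2.80 in the metformin pools, -4.24, -2.98 and -2.27 in the high fat diet pools, and -2.85, -3.23 and -2.67 in the controls. uc.mouse.311 was at -2.88, -0.86 and -2.43 in the metformin pools, -3.52, -2.96 and -2.44 in the high fat diet pools, and -2.29, -3.60 and -2.78 in the controls. Metformin replicate 2 was the highest array for both. As a description over 9 arrays that share their normalization, Pearson's r was 0.85 and Spearman's rho 0.67, and r was 0.65 without metformin replicate 2, so much of the likeness rests on that pool. The files do not say whether these probes lie near each other or read 1 transcript.

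uc.mouse.12, above the upper quartile on every array and not among the members named by rule, was at 2.00, 2.41 and 2.12 in the metformin pools, 1.78, 1.28 and 1.97 in the high fat diet pools, and 1.54, 1.51 and 1.49 in the controls. The metformin pools were above all 6 other arrays, with differences of 0.50 against high fat diet (SE 0.19, limma adjusted p = 0.697) and 0.66 against control (SE 0.19, limma adjusted p = 0.121).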
